A study of Rattus norvegicus with 15 samples.

Results

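RNA polymerase II, the general transcription factors that place it on promoters and the Mediator complex were followed in rat testes before and after irradiation. The genes were chosen by name. Of 31099 probe sets on the array, 102 carried a single gene symbol that starts with Taf and a digit, Gtf2, Tbp, Polr2, or Med and a digit. They stand for 74 of the 14217 genes with a single symbol on the array. One further TAF gene was left out by the naming rule. The animals were LBNF1 hybrids, 25 to 27 weeks old in both groups per the labels. The control group holds 10 arrays of testes labelled as taken before irradiation. The irradiated group holds 5 arrays of testes labelled as taken after it, and the treatment text names a dose of 6 Gy to the lower abdomen for every sample. How long after exposure the testes were taken is not stated. It is also not stated whether each biological replicate is another rat, so the p-values reflect only the spread among these arrays, which may be technical.

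Transcription of protein-coding genes starts when TFIID, made of the TATA-binding protein TBP and its associated factors (TAFs), binds a core promoter. TFIIA and TFIIB stabilise it there, TFIIF brings in RNA polymerase II, and TFIIE and TFIIH open the DNA. Mediator bridges the polymerase and the activators bound to enhancers. The testis is known for variants of this machinery, among them the TBP-like factor Tbpl1 and the TFIID subunit Taf7l, which male germ cells express strongly. Expression was read as log2 signals, on which a difference of 1 is a doubling. Negative values are ordinary low signals, because the zero point of the deposited scale is not stated. Every change below is irradiated minus control.

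The start regions of 6 genes are shown first, because their changes were among the largest of the set in either direction. Tbp and Tbpl1 are paralogues that both fell, Taf10 and Taf11l1 also fell, and Taf13 and Med14 rose. Each sequence holds the 250 bases before the annotated transcription start in RefSeq (build GRCr8), written 5′ to 3′ on the gene's own strand. Tbp lies at chr1:65136458-65136707 on the plus strand, Tbpl1 at chr1:24597371-24597620 on the plus strand and Taf10 at chr1:169508209-169508458 on the minus strand. Taf11l1 lies at chr10:74281059-74281308 on the minus strand, Taf13 at chr2:198893082-198893331 on the plus strand and Med14 at chrX:12709471-12709720 on the plus strand. Capitals mark matches on either strand to a TATA box, CCAAT box, GC box, ETS core, cAMP response element or NRF1 core, with letters given below except for the last, which is given by name. Matches may touch or overlap.
Tbp: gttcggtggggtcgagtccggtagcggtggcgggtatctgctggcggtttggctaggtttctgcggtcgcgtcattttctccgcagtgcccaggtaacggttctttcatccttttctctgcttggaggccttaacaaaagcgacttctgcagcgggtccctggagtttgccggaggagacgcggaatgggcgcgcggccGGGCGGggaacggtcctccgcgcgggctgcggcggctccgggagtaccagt
Tbpl1: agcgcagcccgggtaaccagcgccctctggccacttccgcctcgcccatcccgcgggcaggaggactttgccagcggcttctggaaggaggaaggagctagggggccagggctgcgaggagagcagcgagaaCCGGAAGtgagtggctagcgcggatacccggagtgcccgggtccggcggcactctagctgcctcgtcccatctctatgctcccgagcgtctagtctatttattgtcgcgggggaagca
Taf10: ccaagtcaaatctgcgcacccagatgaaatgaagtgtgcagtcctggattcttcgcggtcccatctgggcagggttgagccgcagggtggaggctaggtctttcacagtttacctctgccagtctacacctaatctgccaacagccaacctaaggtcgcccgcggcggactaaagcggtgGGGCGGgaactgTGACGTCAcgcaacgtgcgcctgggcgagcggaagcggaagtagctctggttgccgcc
Taf11l1: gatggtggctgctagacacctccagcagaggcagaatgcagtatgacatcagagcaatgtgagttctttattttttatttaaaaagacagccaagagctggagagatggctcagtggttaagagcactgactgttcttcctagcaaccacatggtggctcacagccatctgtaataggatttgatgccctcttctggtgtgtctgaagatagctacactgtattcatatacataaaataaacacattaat
Taf13: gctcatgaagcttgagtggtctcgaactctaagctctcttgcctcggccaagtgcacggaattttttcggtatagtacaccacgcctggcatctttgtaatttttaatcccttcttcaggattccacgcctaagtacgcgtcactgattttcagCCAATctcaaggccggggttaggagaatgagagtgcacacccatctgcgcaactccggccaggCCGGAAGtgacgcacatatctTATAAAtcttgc
Med14: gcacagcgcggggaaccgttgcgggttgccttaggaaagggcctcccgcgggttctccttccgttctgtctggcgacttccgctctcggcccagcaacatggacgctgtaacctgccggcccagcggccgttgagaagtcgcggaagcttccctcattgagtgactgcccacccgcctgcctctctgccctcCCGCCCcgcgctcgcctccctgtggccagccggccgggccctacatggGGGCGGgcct
Within these windows Tbp held a GC box and Tbpl1 an ETS core. Taf10 held a cAMP response element that begins 58 bases before the start, and a GC box. Taf13 held a TATA box that begins 12 bases before the start, an ETS core and a CCAAT box, and Med14 held 2 GC boxes. Taf11l1 held no match. It also held no CG dinucleotide (0 in 250 bases), against 28 in Tbp, 22 in Tbpl1, 18 in Taf10, 13 in Taf13 and 24 in Med14.

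Start regions were found for 64 of the 74 genes. The median number of CG dinucleotides in the 250 bases was 17, and it was 16 over 9031 start regions of all genes tested. A TATA box, searched as TATAAA, was present in 4 of the 64 (6.25%), against 6.44% of all genes tested. The CCAAT box, searched under those letters, was present in 23 (35.9%, against 35.8%). GC boxes, searched as GGGCGG, were present in 45 (70.3%, against 58.5%). The ETS core, searched as CCGGAAG, was present in 18 (28.1%, against 15.01%). The cAMP response element, searched as TGACGTCA, was found in 3 (4.69%, against 2.96%). The NRF1 core, the palindrome bound by nuclear respiratory factor 1, was found in 2 (3.13%, against 1.75%). A match describes the letters and not a bound factor.

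Signals came from whole testes, in which fewer cells of a type and less RNA per cell cannot be told apart. Markers of meiotic and later germ cells moved with the groups. The log2 of the summed signal of 7 spermatocyte markers lay between 6.05 and 6.43 in control arrays and between -0.36 and -0.15 in irradiated arrays, where all 7 lay below the array median. That of 4 round spermatid markers went from 4.82 to 5.19 down to -1.08 to -0.23. That of 10 elongating spermatid markers went from 8.51 to 9.12 down to 0.68 to 2.18. Spermatogonia differed: the sum of 5 markers was 1.77 to 2.07 in control arrays and 1.78 to 2.65 in irradiated arrays, with overlap. Of the 4 spermatogonia markers tested, 2 rose, 1 fell and 1 did not pass. The sums of somatic markers were higher: 8 Sertoli cell markers went from between 4.48 and 4.91 to between 6.55 and 7.15, and 6 Leydig cell markers from between 2.47 and 3.07 to between 6.15 and 6.49. In 6 macrophage markers the sum went from between 1.10 and 1.56 to between 3.96 and 4.07. Array medians were higher after irradiation, at -1.38 to -1.26 against -1.61 to -1.37 (by an exact permutation test p = 0.000666, and 0.002 when adjusted over 3 array measures). The actin 3' minus 5' signal, which grows as RNA degrades, did not pass the same test (exact permutation p = 0.967), and reached 1.89 in 1 control array. The part of cell composition in the changes below was not tested.

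After irradiation, both TBP family genes had lower signals, and TFIID, the TFIIA to TFIIH factors, RNA polymerase II and Mediator each held genes that rose and genes that fell. Of the 74 genes, 70 had a probe set bright enough to test. In 58 of these (82.9%) the groups differed at an adjusted p of 0.05 (limma), against 85.5% of all 10841 genes tested. Higher signals were found in 28 (40%, against 47.6% of all genes) and lower signals in 30 (42.9%, against 37.9%). The 5 irradiated arrays lay wholly on one side of the 10 control arrays in 46 genes (65.7%, against 69.5%), 22 of them higher (background 40.5%) and 24 lower (background 29.0%). After quantile normalization 20 genes were higher and 38 lower, against 4483 higher and 4788 lower of all 10841 genes (34.5% of the calls in the set were higher, and 48.4% of those over all genes), so that the split between the directions depended on the scaling. Tbp, Tbpl1 and the TFIID TAFs together kept 4 higher and 9 lower under it. RNA polymerase II moved from 7 higher and 2 lower to 6 and 6, and Mediator from 12 higher and 9 lower to 7 and 12.

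Changes in the set were mostly moderate. The median size of change, without its sign, was 0.74 on the log2 scale over the 70 genes and 1.13 over all genes. Rises of at least 2-fold occurred in 7 genes (10%, against 31.9% of all genes), and falls of at least 2-fold in 11 (15.7%, against 22.8%). The signed median was -0.04, against 0.20 over all genes, a gap of -0.24. Quartiles lay at -0.75 and 0.63, against -0.88 and 1.32 over all genes. Arrays of a group agreed closely, with a median SD of 0.18 across control arrays and 0.16 across irradiated arrays. These are descriptions, since 1 of the tested genes was under the median of all control arrays and 5 under that of all irradiated arrays, and such genes reached the test through a single group.

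**Figure D1:**
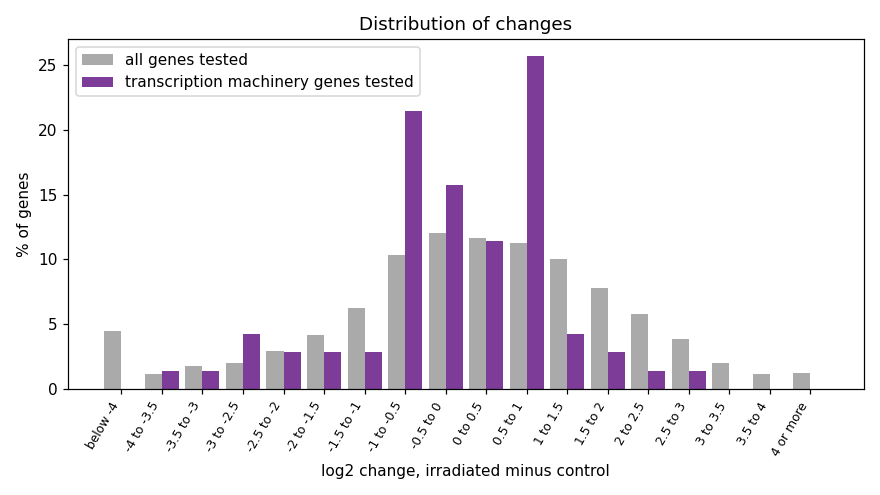
Share of genes (vertical axis, %) by log2 change, irradiated minus control (horizontal axis, bins of 0.5 log2 units), for the 70 transcription machinery genes tested and for all 10841 genes tested. The machinery genes lie mostly between -1 and 1, with 7 at least 2-fold higher and 11 at least 2-fold lower.

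Both TBP family genes fell. Tbp, whose product binds the TATA box, had log2 signals in control arrays with a lowest value of 1.37, a median of 1.80 and a highest value of 1.94. In the irradiated arrays they were -0.24, -0.83, -0.58, -0.38 and -0.57. The groups did not overlap, and the change was -2.29 ± 0.11 (SE, n = 10 and 5, limma adjusted p = 3.87e-12), a 4.89-fold fall. Tbpl1 encodes the TBP-like factor that spermatids need. Its control signals ran from 3.84 over a median of 3.96 to 4.33, and its irradiated signals were 0.83, 0.51, 0.39, 0.47 and 0.55. That is a change of -3.47 ± 0.09 (adjusted p = 3.34e-15), 11.1-fold lower, again with no overlap.

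Of the 11 tested TFIID TAF genes 7 fell and 4 rose, where 37.9% of all genes fell and 47.6% rose. Their median change was -0.74 (-0.94 beside all genes). Taf9, a histone-fold subunit shared by TFIID and the coactivator SAGA, had control signals from 4.71 over a median of 4.89 to 5.21. The irradiated values were 1.17, 0.92, 1.07, 1.03 and 1.00, all far below the controls. Its change of -3.92 ± 0.10 (adjusted p = 1.06e-15), or 15.2-fold, was the largest fall in the set. In RefSeq the Taf9 locus overlaps Ak6 and Rad17, and whether this probe set also reads them was not tested. Rad17, measured by its own probe set, fell by 1.74. In the same annotation Tbp overlaps Psmb1, whose own probe set rose by 0.46, and Taf10 overlaps Ilk, whose own probe set gave -0.56 and did not pass (adjusted p = 0.0837). Taf10, another histone-fold subunit of both complexes, went from a lowest, median and highest control value of 3.49, 3.71 and 4.00 to 1.28, 1.08, 0.92, 1.27 and 1.04. The change was -2.59 ± 0.10 (adjusted p = 1.84e-13), with the groups apart.

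Taf6, the histone-fold partner of Taf9, fell less, by 0.74 ± 0.08, and the scaffold gene Taf5 fell by 1.17 ± 0.10. The germ cell subunit Taf7l had control signals from -0.26 to 0.18 with a median of -0.10. Its irradiated signals were all under their array's median, at -2.15, -2.19, -1.78, -2.14 and -2.00, so that it was at least 2.33-fold lower (adjusted p = 3.88e-12). A level below the array median was treated as dim, with only a bound, because the table carries no detection calls. Taf11l1, named in RefSeq as a gene like Taf11, had control signals from 0.92 over 1.16 to 1.39 and irradiated signals of -1.84, -1.39, -1.78, -2.06 and -1.76. All 5 were dim, and the gene was at least 5.38-fold lower (adjusted p = 2.72e-13). Taf11l1 thus reached the test through the control group alone. Taf3, a reader of methylated histone H3, and Taf12, the partner of Taf4, also fell by the test. With dim values at the array median they were 1.05-fold and 1.02-fold lower. These are not bounds, because 3 control arrays of each gene were dim too, which leaves the size of both falls unknown. Taf3 lost its call with control replicates 1 to 5 only (adjusted p = 0.0821) and with the replicate block (adjusted p = 0.149).

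The 4 TAF genes that rose include the largest subunit. Taf1, the TFIID scaffold with a pair of bromodomains, had control signals from -2.45 over -1.80 to -1.31, of which 7 of 10 were dim. Its irradiated values were -0.08, -0.13, -0.03, -0.05 and -0.08, a measured rise of 1.70 ± 0.16 (adjusted p = 3.80e-08) that was 1.36 with the dim values set to the array median. Taf13, which pairs with Taf11 through a histone fold, rose from a lowest, median and highest control value of -1.62, -1.20 and -0.85 to 0.83, 0.73, 0.95, 0.82 and 1.03. The change was 2.08 ± 0.13 (adjusted p = 1.78e-10), and its other tested probe set rose as well, by a measured 1.80. Taf2, a promoter-binding subunit, rose by 1.09 ± 0.11, and Taf4, which contacts activators, by 0.85 ± 0.10. The histone-fold partners Taf6 (-0.74) and Taf9 (-3.92) had changes of like sign, and the difference in size was not tested.

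**Figure D2:**
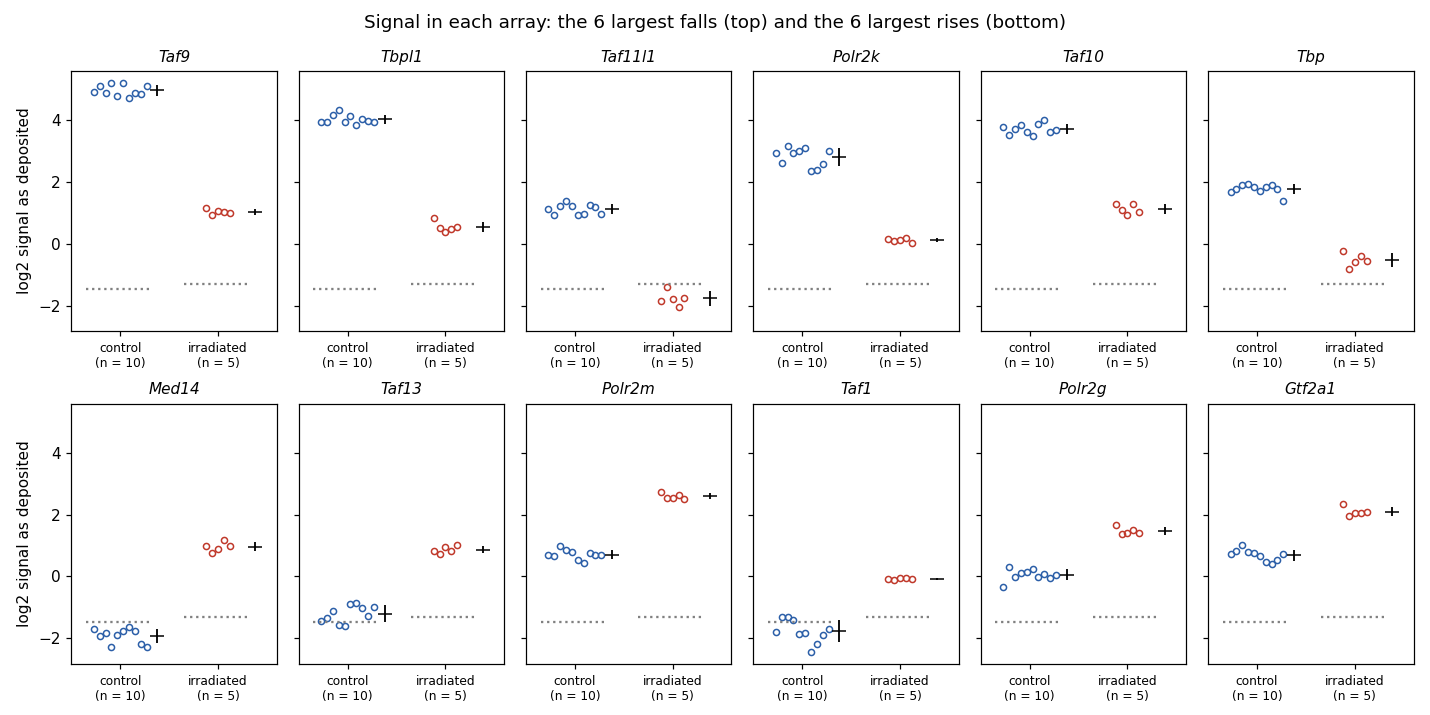
Log2 signal as deposited (vertical axis) in each control array (10 blue circles) and irradiated array (5 red circles) for the 6 genes with the largest measured falls (top) and rises (bottom). Black marks show the group mean ± SD and dotted lines the mean array median of the group; in all 12 genes the groups do not overlap, and the irradiated values of Taf11l1 and the control values of Med14 lie below their own array medians.

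Several genes with TAF names work outside TFIID. Taf6l, a SAGA subunit related to Taf6, fell by 0.92 ± 0.11. Of the TAFs of RNA polymerase I, which transcribes ribosomal RNA, Taf1d fell by 0.78 ± 0.11. Taf1b was dim in every irradiated array and in 2 control arrays. With dim values at the array median it was 1.05-fold lower, which is not a bound. Taf1c rose by 0.61 ± 0.19, with overlapping groups. Taf1c lost its call after quantile normalization (adjusted p = 0.133) and with control replicates 6 to 10 only (adjusted p = 0.0909). Taf15, an RNA-binding protein of the FET family, had no probe set bright enough to test.

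Of 9 tested genes of TFIIA, TFIIB, TFIIE, TFIIF and TFIIH, 6 fell, 2 rose and 1 did not pass, where 37.9% of all genes fell and 47.6% rose. Gtf2b, which encodes TFIIB, ranged from 1.02 to 1.64 in control arrays with a median of 1.32, and was 1.504, 1.34, 1.17, 1.21 and 1.41 in irradiated arrays. These values overlap fully, and the difference was -0.02 ± 0.10 (adjusted p = 0.879), although it became -0.27 (adjusted p = 0.00465) after quantile normalization. Both TFIIF genes fell: Gtf2f1 by 1.63 ± 0.14 and Gtf2f2 by 1.00 ± 0.13. The other probe sets of Gtf2f1 gave measured changes of -1.56 and -1.51. The small TFIIA subunit gene Gtf2a2 fell by 0.95 ± 0.09, and the TFIIE subunit gene Gtf2e2 by 0.32 ± 0.08.

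Gtf2a1, the gene of the large TFIIA subunit, gave opposite answers from its probe sets. The brighter probe set had control signals from 0.39 over 0.73 to 1.01 and irradiated signals of 2.34, 1.96, 2.07, 2.04 and 2.08, a rise of 1.41 ± 0.10 (adjusted p = 1.03e-09). The dimmer probe set had control signals from -0.50 to 0.34 with a median of -0.28. It was dim in all irradiated arrays, at -1.65, -1.51, -2.42, -3.07 and -2.03, and at least 2.12-fold lower (adjusted p = 1.75e-07). This probe set therefore reached the test through the control group alone. Which transcripts each probe set reads was not tested, and the mean of both gave a change of -0.25 that did not pass (adjusted p = 0.0756).

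TFIIH, a helicase and kinase complex that also repairs DNA, was covered by 3 tested Gtf2h genes. Gtf2h1 fell by 0.75 ± 0.11 and Gtf2h4 by 0.72 ± 0.13, while the small subunit gene Gtf2h5 rose by 0.74 ± 0.11. The other TFIIH subunit genes, from a list outside the naming rule, were also split. The helicase gene Ercc3 rose by 0.78 ± 0.11 and the cyclin gene Ccnh by 1.26 ± 0.14. The helicase gene Ercc2 fell by 0.96 ± 0.11, the kinase gene Cdk7 by 0.37 ± 0.12 and its assembly factor gene Mnat1 by 0.23 ± 0.10 (adjusted p = 0.048). The TFII-I genes Gtf2i and Gtf2ird1, which encode sequence-specific regulators rather than general factors, rose by 0.56 ± 0.15 and 0.84 ± 0.12. Gtf2i lost its call after quantile normalization (adjusted p = 0.0791) and with the mean of its probe sets (adjusted p = 0.114). Its other probe set did not pass (-0.01, adjusted p = 0.955).

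**Figure D3:**
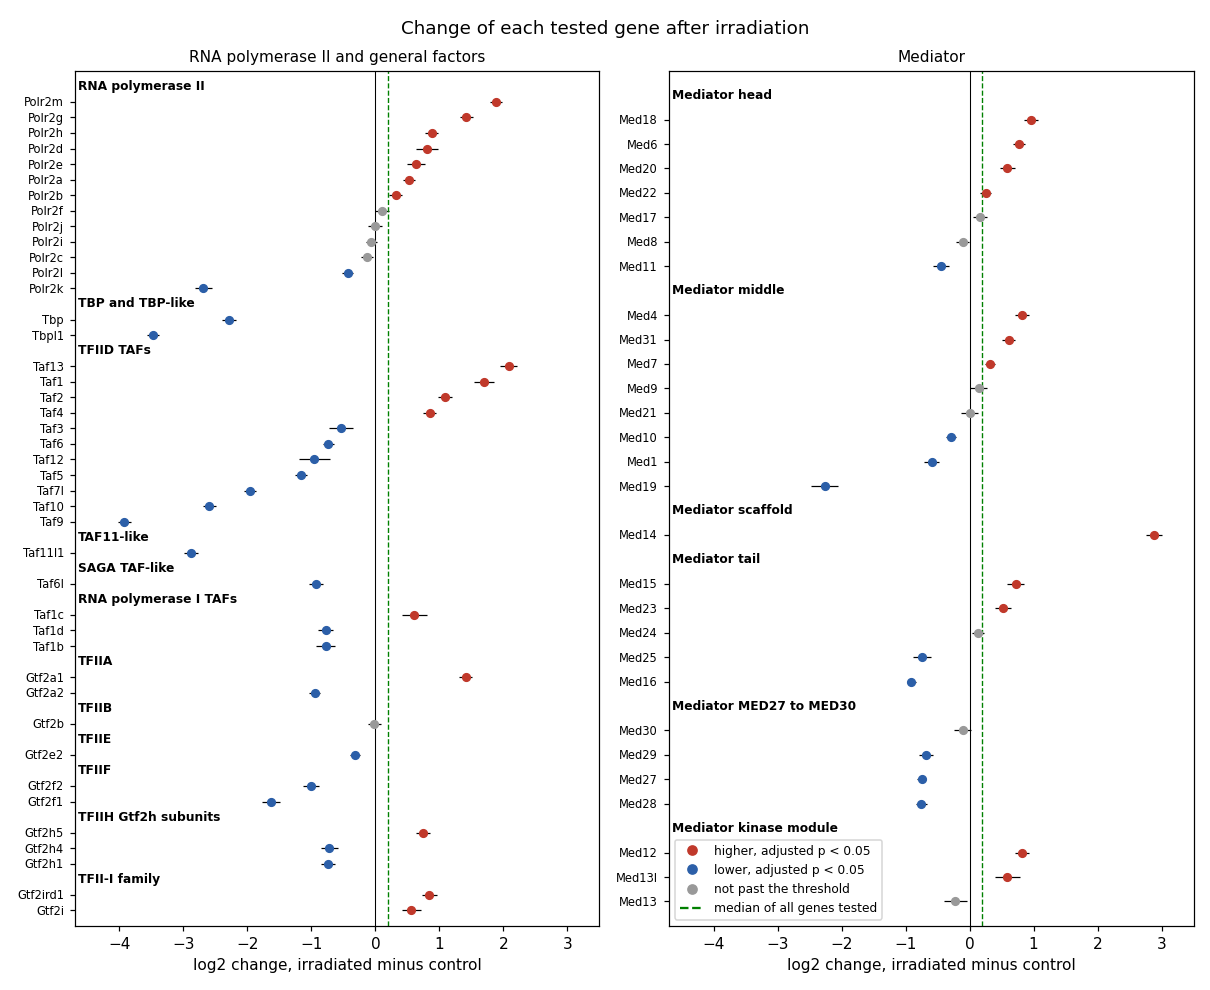
Log2 change, irradiated minus control, of each of the 70 tested genes (points, with limma's standard error as bars), grouped by complex and coloured by call. TBP family genes lie at -2.29 and -3.47, and TFIID and Mediator genes spread to both sides. The lowest measured change is that of Taf9 (-3.92), and the highest that of Med14 (2.88), whose control values were all dim.

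RNA polymerase II was measured with all 13 of its Polr2 genes. Of these 7 rose, 2 fell and 4 did not pass, where 47.6% of all genes rose and 37.9% fell. Their median change was 0.32, or 0.11 relative to all genes. Polr2a, the largest subunit, whose tail is phosphorylated during transcription, had control signals from 1.06 over 1.34 to 1.55. In irradiated arrays it was 1.80, 1.95, 1.87, 1.95 and 1.76, all above the controls, a rise of 0.52 ± 0.09 (adjusted p = 6.17e-05). The second-largest subunit, Polr2b, rose by 0.32 ± 0.10, a call lost after quantile normalization (adjusted p = 0.335), after centring arrays on their medians (adjusted p = 0.168) and with the replicate block (adjusted p = 0.0792). Polr2g and Polr2d encode the stalk that binds emerging RNA. Polr2g had control signals from -0.33 over 0.07 to 0.32 and irradiated signals of 1.68, 1.38, 1.42, 1.51 and 1.40, a rise of 1.42 ± 0.10 (adjusted p = 7.00e-10), and Polr2d rose by 0.81 ± 0.17.

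Polr2k showed the opposite. This small subunit is shared with RNA polymerases I and III. Its control signals ran from 2.36 over 2.94 to 3.15, and its irradiated signals were 0.16, 0.09, 0.12, 0.19 and 0.03, within a narrow band below every control. The fall was 2.69 ± 0.13 (adjusted p = 8.31e-12), or 6.45-fold. The other shared subunits had smaller measured changes, in both directions. Polr2l fell by 0.43 ± 0.09, Polr2e and Polr2h rose by 0.63 ± 0.14 and 0.88 ± 0.10, and Polr2f did not pass (0.11, adjusted p = 0.356), although another probe set of Polr2f fell by 0.43.

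Polr2m encodes a protein that associates with the polymerase and makes it depend on Mediator. Its control signals ran from 0.44 over 0.71 to 1.00 and its irradiated signals were 2.74, 2.53, 2.55, 2.63 and 2.51. The rise was 1.89 ± 0.09 (adjusted p = 4.46e-12). A second probe set, dim in every control array, was at least 1.86-fold higher. The core subunit genes Polr2c (-0.14, adjusted p = 0.183), Polr2i (-0.06, adjusted p = 0.514) and Polr2j (-0.00425, adjusted p = 0.972) did not pass. After quantile normalization all 3 and Polr2f were lower at the threshold. Polr2c was also lower after centring arrays on their medians (-0.29, adjusted p = 0.0131) and without irradiated replicate 1 (-0.23, adjusted p = 0.0204).

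Mediator was represented by 28 genes, of which 12 rose, 9 fell and 7 did not pass. Beside these counts and those by module below, 47.6% of all genes rose and 37.9% fell. The median change over the 28 genes was 0.14, or -0.06 beside all genes. In the head, which touches the polymerase, 4 of 7 genes rose and 1 fell. Med18 rose by 0.96 ± 0.11, Med6 by 0.78 ± 0.09 and Med20 by 0.59 ± 0.12, a call that Med20 lost after quantile normalization (adjusted p = 0.0561). Med22 rose by 0.25 ± 0.09, with overlapping groups. Its call was lost after quantile normalization (adjusted p = 0.303), after centring arrays on their medians (adjusted p = 0.308) and with control replicates 6 to 10 only (adjusted p = 0.155). Med11 fell by 0.45 ± 0.12. Med17, the central head subunit, did not pass (0.17, adjusted p = 0.162).

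In the middle module 3 of 8 genes rose and 3 fell. Med1, through which nuclear receptors contact Mediator, had control signals from 0.57 over 0.83 to 1.18 and irradiated signals of 0.51, -0.02, 0.28, 0.13 and 0.28. It fell by 0.59 ± 0.11 (adjusted p = 0.000148), with the groups just apart, and its other tested probe set fell by 0.56 with overlap. Med19, a middle subunit that receives repressor and activator signals, had control signals from 1.49 over 1.80 to 2.87 and irradiated signals of 0.24, -0.50, -0.69, -0.68 and -0.10. Its fall of 2.26 ± 0.21 (adjusted p = 3.32e-08) was larger than that of any other Mediator gene tested. Med4 rose by 0.82 ± 0.11 and Med31 by 0.61 ± 0.11, but their second probe sets did not pass (-0.29, adjusted p = 0.0794, and 0.33, adjusted p = 0.0801). Med7 rose by 0.32 ± 0.08, a call lost after quantile normalization (adjusted p = 0.140) and after centring arrays on their medians (adjusted p = 0.0571). Med10 fell by 0.28 ± 0.08, a call lost with control replicates 6 to 10 only (adjusted p = 0.0535).

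Med14, the scaffold that joins the modules, was the gene with the largest measured rise. All 10 control values were dim, from -2.29 over -1.86 to -1.64, and the irradiated values were 0.99, 0.76, 0.89, 1.17 and 0.99. The gene was at least 5.38-fold higher (adjusted p = 8.03e-13). Its other probe set was too dim to test, with measured means of -2.74 and -1.27.

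Tail genes, which receive activators, were split. Med15 and Med23 rose by 0.72 ± 0.13 and 0.52 ± 0.13, Med16 and Med25 fell by 0.91 ± 0.07 and 0.74 ± 0.14, and Med24 did not pass (0.13, adjusted p = 0.211). The second probe set of Med25 did not pass either (-0.10, adjusted p = 0.524). The call of Med23 was lost after quantile normalization (adjusted p = 0.226). Of the metazoan subunits Med27 to Med30, Med27 fell by 0.75 ± 0.07, Med28 by 0.76 ± 0.09 and Med29 by 0.68 ± 0.11, and Med30 did not pass (-0.10, adjusted p = 0.478). Med30 was lower by the test after quantile normalization (adjusted p = 0.0133), without the 3 control arrays of highest actin difference (adjusted p = 0.0453) and with control replicates 1 to 5 only (adjusted p = 0.0221). The kinase module, which binds Mediator reversibly, had 2 higher genes of 3. Med12 rose by 0.82 ± 0.10, Med13l by 0.59 ± 0.19, a call lost after quantile normalization (adjusted p = 0.190), and Med13 did not pass (-0.22, adjusted p = 0.257). Med13 was lower by the test (-0.38, adjusted p = 0.0315) without the 3 control arrays of highest actin difference. The same held with control replicates 1 to 5 only (-0.46, adjusted p = 0.0248) and with the replicate block (-0.46, adjusted p = 0.00968). With control replicates 6 to 10 only, its change was 0.02 (adjusted p = 0.909). The partners of this module, listed outside the naming rule, rose too: the kinase genes Cdk8 and Cdk19 by 1.11 ± 0.12 and 0.28 ± 0.12 and the cyclin gene Ccnc by 1.39 ± 0.17.

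Paralogues could be compared in 3 of 8 listed pairs, by the change in the difference between their log2 signals over the arrays. Tbp fell less than Tbpl1, by 1.18 ± 0.10 (SE, exact permutation p = 0.000333, the smallest these arrays can give, adjusted p = 0.000999 over the 3 pairs). The difference in every irradiated array lay above that in every control array. For Taf6 against Taf6l the difference in change was 0.19 ± 0.14 (exact permutation p = 0.208, adjusted p = 0.208), and with the mean of each gene's probe sets it was 0.36 (exact permutation p = 0.00533). For Med13 against Med13l it was -0.81 ± 0.27 (exact permutation p = 0.03, adjusted p = 0.045), with overlap between the groups. That test did not pass after quantile normalization (-0.68, exact permutation p = 0.0653), with control replicates 6 to 10 only (-0.58, exact permutation p = 0.159), or without irradiated replicate 1, 2 or 4 (-0.72, -0.72 and -0.80, exact permutation p = 0.0689, 0.0699 and 0.0509).

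Genes on the X chromosome, which is silenced during male meiosis, include Taf1, Taf7l, Taf9b, Med12 and Med14. Of the 4 tested, 3 rose (Taf1, Med12 and Med14) and Taf7l was lower, where 47.6% of all genes rose and 37.9% fell. Control arrays below their median numbered 10 for Med14, 7 for Taf1 and 3 for Med12, of 10. Taf7l was dim in all 5 irradiated arrays, so Med14 and Taf7l reached the test through a single group. Taf9b was dim in all 15 arrays, with measured means of -3.07 and -1.97. All 4 tested genes had groups that did not overlap, as 69.5% of all genes did.

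Probe sets of one gene did not always give one answer. Among the 74 genes, 25 had more than 1 probe set on the array, and 16 had more than 1 that was tested. In 9 of these the calls matched. In 6, at least 1 probe set was called and at least 1 was not, as in Med21 (0.00370, adjusted p = 0.981). Its second probe set was called lower, and was dim in every irradiated array and in 3 control arrays. With dim values at the array median this probe set was 1.201-fold lower, which is not a bound. Opposite calls occurred in 1 gene, Gtf2a1. The 15 probe sets not tested had means between -4.21 and -1.77 in control arrays and between -3.82 and -1.27 in irradiated arrays. They include all probe sets of Gtf2e1, Gtf2h3, Taf15 and Taf9b.

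**Figure D4:**
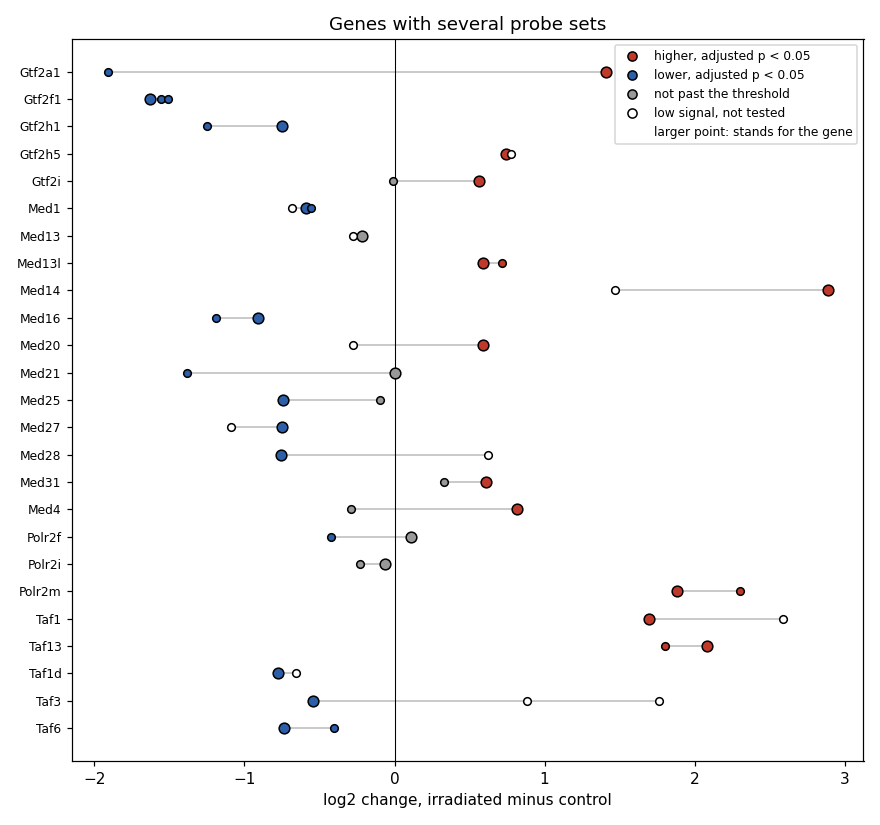
Log2 change, irradiated minus control (horizontal axis), of every probe set of the 25 genes with more than 1 probe set; a larger point stands for the gene, colour gives the call and white points were too dim to test. Gtf2a1 spans from -1.91 to 1.41, while both tested probe sets of Taf13 and of Polr2m are higher.

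Other genes of nuclear transcription, from TFIIH and Mediator partners to elongation factors and RNA polymerases I and III, changed in both directions as well. Of 82 such listed genes outside the naming rule, 70 were tested, of which 35 rose and 27 fell. Beside these counts and those of the lists below, 47.6% of all genes rose and 37.9% fell. The median change of the 70 was 0.23, or 0.03 beside all genes. Among 11 genes of pause release and the BET family, 8 rose and 3 fell. The elongation scaffold gene Aff4 rose by 2.67 ± 0.17 and Hexim1, an inhibitor of the elongation kinase, by 2.30 ± 0.13. The kinase gene Cdk9 and its cyclin gene Ccnt2 rose by 0.62 ± 0.12 and 1.35 ± 0.15. The pausing factor subunit gene Nelfe fell by 1.76 ± 0.09 and the bromodomain gene Brd2 by 0.97 ± 0.12. Of 17 elongation factor genes 7 rose and 8 fell. Tcea2, a testis form of the factor that rescues stalled polymerase, had a mean of 3.32 in control arrays and was dim in every irradiated array, so that its change was at most -4.63 (adjusted p = 8.22e-14). Tcea2 thus reached the test through the control group alone. Ell2 fell by 3.02 ± 0.12. Among 10 genes of phosphatases of the polymerase tail and of polymerase assembly, 3 rose and 4 fell. The phosphatase genes Ctdsp1, Ctdsp2 and Ctdspl rose by 2.82 ± 0.11, 2.38 ± 0.10 and 1.69 ± 0.10, and Ctdp1 fell by 1.28 ± 0.09.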

How the data were processed

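Values are log2 signals, 1 per probe set and array, in the table that the authors deposited. They came from MAS5, per the submitters' processing notes. Scaling and log steps are not given in the sources used here. Gene names are those of the platform's annotation, and all 74 gene identifiers were found in RefSeq (GRCr8), with 0 symbols changed. Tested were the 18711 of 31099 probe sets at or above the array median in 5 or more of the 15 arrays. Groups were compared without covariates using limma (version 3.58.1, R version 4.3.3), with p-values adjusted by Benjamini-Hochberg over all probe sets tested and a threshold of 0.05. Each gene was read from its tested probe set of highest overall mean. The fit was tested on simulated data, in which 200 of 18711 probe sets were changed. It recovered 27% of changes of size 0.5 and 78% of those of size 1, with 1 call among unchanged probe sets each time. In the real data 85.5% of genes were called, so these shares need not hold there. Dim means that a value lay under the median of its own array, in single arrays or throughout a group as stated. Changes and folds with dim values at the array median were taken with each array at no less than its median. They are bounds only where no array of the brighter group lay under its median.

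Named with values were the 6 largest rises and falls with no overlap, paralogue pairs, Tbp, Taf1, Gtf2b, Polr2a, Med1, Med14, genes with opposite probe sets, and examples of each complex. Members, lists and tests were chosen with earlier results of these data known. Replicate numbers 1 to 5 occur in both groups. Deviations of same-numbered arrays correlated between -0.05 and 0.07. The labels name no pairing, and a low correlation cannot exclude one. The number of arrays limits the precision. No array column was left unused (0 columns).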

Additional observations from a re-analysis of the deposited data

Results flagged for a closer look

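Tbp in control replicate 10 lay apart from the other control arrays, at 1.37 against 1.66 in the nearest of them. Without this array the change of Tbp was -2.33 (limma adjusted p = 2.64e-12), against -2.29 with it. It was the only such value among 38 groups of arrays examined for the 19 genes chosen for full values, and chance alone would mark about 1 in 20.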

How the results depend on the processing

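Over 25 alternatives, no called gene of the set changed from higher to lower or back (0 calls) in the fits, and 467 of 473 values of the 19 genes chosen for full values kept their direction and side of the threshold. Quantile normalization changed 16 calls of the 70 genes and centring arrays on their median 5; the shift of the median of all genes from 0.20 to -0.06 and 0.05 accompanied them. Without a filter the median relative to all genes was -0.088, against -0.24. With the mean of a gene's probe sets, Gtf2a1 turned to -0.25 and the difference for Taf6 and Taf6l became 0.36. The difference for Med13 and Med13l was -0.68 after quantile normalization and -0.58 with control replicates 6 to 10 only, and neither passed; the cause was not tested. With the replicate block on replicates 1 to 5, which pairs nothing the labels name, 27 genes were higher and 30 lower, and the differences were 1.17 for Tbp and Tbpl1 and -1.04 for Med13 and Med13l (exact p = 0.0625, the smallest that 5 pairs allow). Leaving out 1 array gave 28 to 28 higher and 30 to 31 lower genes and medians between -0.27 and -0.19. The differences then lay between 1.13 and 1.25 for Tbp and Tbpl1, between 0.12 and 0.25 for Taf6 and Taf6l, and between -0.93 and -0.72 for Med13 and Med13l. With the filter at the 75th percentile Med13 and Taf1 were not tested.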

Other observations

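The machinery of the other RNA polymerases also went both ways. Of 8 tested genes of RNA polymerase I and its factors, 4 rose, 1 fell and 3 did not pass. Beside this count and that for RNA polymerase III below, 47.6% of all genes rose and 37.9% fell. The initiation factor gene Rrn3 rose by 1.43 ± 0.10 (SE, limma adjusted p = 4.35e-10) and Ubtf, which binds ribosomal DNA, by 1.16 ± 0.12, while Polr1h fell by 0.77 ± 0.08. Polr1d, a subunit shared with RNA polymerase III, did not pass (0.03, adjusted p = 0.757). Of 16 tested genes of RNA polymerase III and its factors 8 rose and 8 fell, with a median of -0.00117. Polr3f rose by 1.11 ± 0.11 and Gtf3c3 by 0.96 ± 0.14, and Crcp fell by 0.78 ± 0.09, Polr3c by 0.75 ± 0.13 and Polr3d by 0.61 ± 0.09.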
